A study of Mus musculus with 24 samples.

Results

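The 10 genes described here encode the receptors and signal carriers of transforming growth factor beta (TGF-beta) and of the bone morphogenetic proteins (BMPs): the receptors Tgfbr1, Tgfbr2, Tgfbr3, Bmpr1a and Bmpr2, and the SMAD proteins Smad1, Smad2, Smad3, Smad4 and Smad5. They were chosen by symbol, and all 10 have a row among the 49585 genes of the deposited table. The data come from 24 individually sorted BFU-E (burst forming unit-erythroid), a progenitor stage early in red cell formation, from C57/Bl6J fetal liver of embryonic day 14.5. Beads had first removed Ter119, CD41, CD16/32, Sca-1, CD11b, Ly-6G, CD45R and CD3e positive cells, and antibodies to CD24, CD71 and CD117 marked the rest for sorting, with sequencing by Smart-seq2, which covers transcripts along their length. All cells form 1 untreated group with no embryo named for any cell, so the group counts as 1 sample and the values describe these cells without p-values. Cells are numbered as the labels number them, and the well-style names place them in 3 plate columns of 8 cells.

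Ligands of this family bind a type II receptor, which then phosphorylates a type I receptor at a stretch called the GS domain. The type I receptor phosphorylates receptor-regulated SMADs at serines at their very end. Smad2 and Smad3 serve TGF-beta and activin, and Smad1 and Smad5 serve BMPs, while Smad4 is the common partner of both branches. Tgfbr3, also called betaglycan, is a co-receptor that presents TGF-beta to Tgfbr2. In blood formation TGF-beta is best known for holding back the growth of early progenitors, and BMP4 for its role in the expansion of erythroid progenitors under stress.

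Total counts ran from 876983 to 2155010 per cell, and levels are given as CPM, the count scaled to the total of its cell. The 3 counts that a 0 can hide came to between 1.39 and 3.42 CPM, by cell. Detection was set at 5 counts. Of the erythroid progenitor markers, 13 of 14 were detected in at least 12 cells, the exception being Cd34. Markers of other cell types were patchier: detected in at least 12 cells were 1 of 6 megakaryocyte (Itga2b, in 16 cells), 1 of 6 myeloid (Mpo, in 12) and 1 of 4 hepatocyte markers (Afp, in 19), and none of 4 endothelial, 5 stromal, 5 macrophage, 4 mast cell and basophil or 4 lymphoid markers. In fewer cells, Prtn3 was found in 11, Alb in 10, Pecam1 in 9, Cpa3 in 5, Tek and Pdgfrb in 3 each and Cd68 in 1. The endothelial Kdr and Cdh5, the stromal Pdgfra, Col3a1 and Acta2 and the macrophage genes Adgre1, C1qa, C1qb and Vcam1 had 0 counts in every cell.

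The BFU-E held small sets of the 10 transcripts that varied between cells, and genes with a count were in general patchy too. Every cell had at least 1 of the 10 genes and none had more than 4: 1 cell had 1, 7 cells had 2, 10 cells had 3 and 6 cells had 4. Of all 16184 genes with any count, a cell had 4767 to 7349 detected, with a median of 6089.5. Smad2 was the gene found most often, in 15 cells, and Bmpr1a was found in none. Smad2 was also the only 1 of the 10 detected in at least 12 cells, where 36.8% of the 16184 genes with any count reached that number. At the lower mark of 6 cells, 5 of the 10 passed, against 51.1% of the genes with a count, and 9 of 10 were detected in at least 1 cell, against 81.5%. Bmpr1a, with no count, is among the 10 but not among the 16184. The median member was detected in 6 cells, as was the median gene with a count. None of the 10 was detected in all 24 cells, as 7.61% of genes with a count were.

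A transcript was mostly either well covered in a cell or missing. Of the 240 values of 10 genes in 24 cells, 160 were 0 counts, 11 were 1 to 4 counts, and 69 reached 5 counts, 42 of them 50 counts or more. Among values above 0, 86.3% reached 5 counts, against 71.9% for all 8675 genes detected in 1 to 15 cells. The share of values at 0 was 66.7% for the members and 66.7% for those genes. The sets were not chosen alike, since the members include Bmpr1a, at 0 in all 24 cells. Each of the compared genes was detected in at least 1 cell, so the equal shares are not a like comparison. The summed level of the 10 genes had a median of 146 CPM and ran from 18.3 CPM in cell 22 to 474 CPM in cell 3. The number of members detected had a Spearman rho of −0.20 with total counts and 0.29 with genes detected over the 24 cells. The median cell of each of the 3 plate columns had 3 members.

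**Figure D1:**
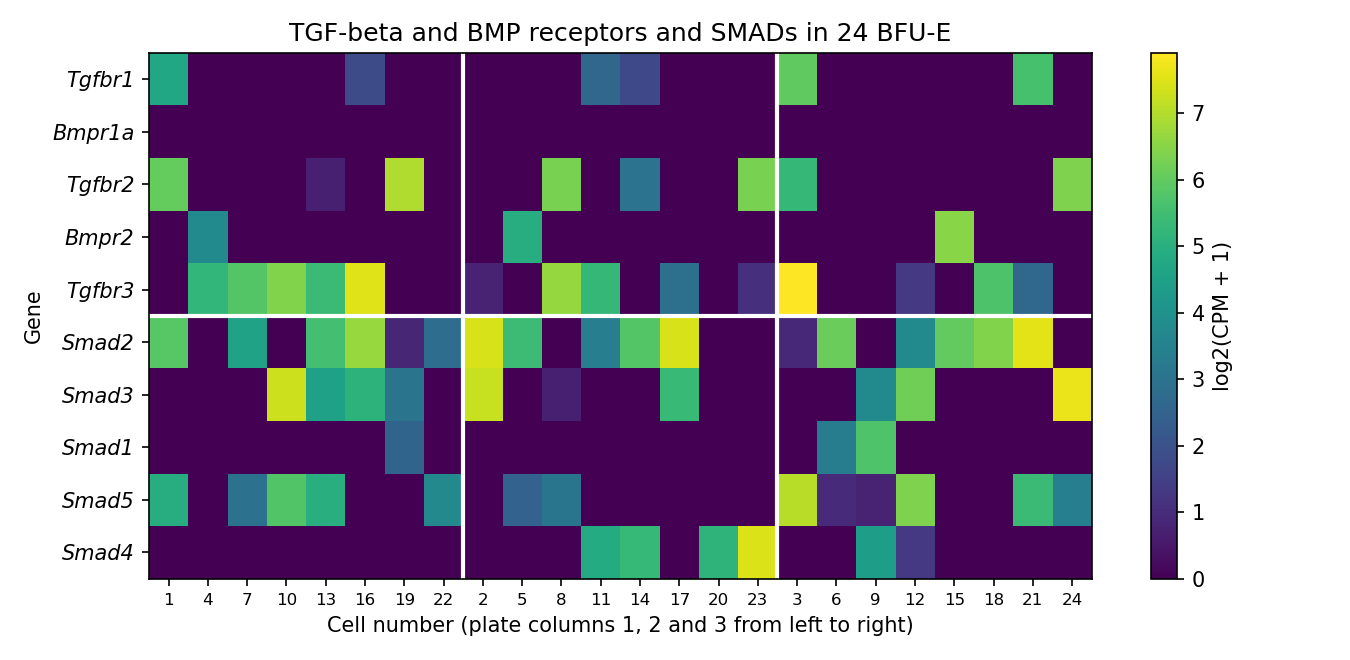
Level of each of the 10 genes (rows) in each of 24 cells (columns, grouped by plate column), as log2(CPM + 1), with receptors above the white line and SMADs below it. Most tiles are at 0, Bmpr1a is at 0 in all 24 cells, and no cell holds more than 4 genes at 5 counts or more.

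**Figure D2:**
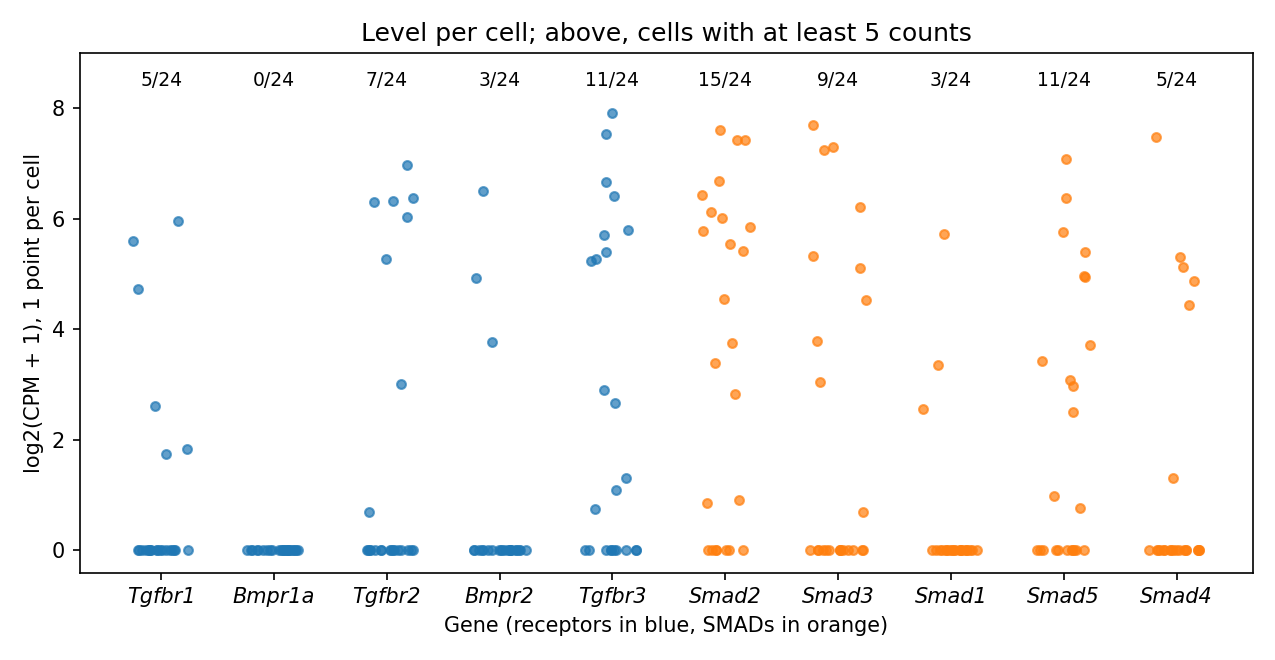
Level per cell of each gene on the log2(CPM + 1) scale, 1 point per cell, with the number of cells at 5 counts or more above each gene. The points of each detected gene split into a band at 0 and a spread upward, which is fullest for Smad2 with 15 of 24 cells.

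The type I receptors, which pass the signal into the cell, were found in few cells. Tgfbr1, the kinase that phosphorylates Smad2 and Smad3 (ENSMUSG00000007613, chromosome 4, 47353222 to 47414931 on GRCm38, the build of all coordinates here), reached detection in 5 cells (20.8%, exact 95% binomial interval 7.13 to 42.2%). Its lowest and median levels were 0 CPM and its highest 61.6 CPM in cell 3. Cells 21, 1, 11 and 16 held 47.3, 25.6, 5.10 and 2.58 CPM, so that 3 cells carried nearly all of it. Bmpr1a, the type I receptor for BMPs (ENSMUSG00000021796, chromosome 14, 34410734 to 34503341), had 0 counts in every cell. For 0 of 24 cells the exact 95% interval reaches 14.2% of cells with a detectable count, which does not limit the share of cells that express the gene below detection, and 0 of 36364096 counts over all cells allows up to 0.0825 CPM. The antisense gene Gm17110, which overlaps Bmpr1a, also had 0 counts.

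The stretch that type II receptors phosphorylate is shown for both type I receptors because it is where signal transfer starts, from the principal transcripts of GENCODE M21 on GRCm38. Capitals mark the serine and threonine codons, and the sequences match at 20 of 33 bases.
Tgfbr1 (chr4:47393468-47396365, plus strand, across the join of exons 3 and 4 of 9): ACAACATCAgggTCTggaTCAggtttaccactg
Bmpr1a (chr14:34429659-34429691, minus strand, exon 8 of 13): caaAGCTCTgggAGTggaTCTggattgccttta

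The type II receptors were also found in a minority of cells. Tgfbr2 (ENSMUSG00000032440, chromosome 9, 116084293 to 116175360), which binds TGF-beta itself, was detected in 7 cells (29.2%, interval 12.6 to 51.1%). Its median was 0 CPM, its highest 124 CPM in cell 19, and the median over its 7 cells 78.1 CPM. Bmpr2 (ENSMUSG00000067336, chromosome 1, 59763400 to 59879014), which binds BMPs, was detected in 3 cells, at 89.2 CPM in cell 15, 29.5 CPM in cell 5 and 12.7 CPM in cell 4. The other 21 cells had 0 counts of Bmpr2.

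Tgfbr3 was the most common of the receptors. This co-receptor (ENSMUSG00000029287, chromosome 5, 107106570 to 107289629) was detected in 11 cells (45.8%, interval 25.6 to 67.2%), with a median of 1.31 CPM over 24 cells, 51.5 CPM over the cells that had it and a highest value of 239 CPM in cell 3. Cells 16 and 8 followed at 184 and 101 CPM. Its mean was 35.3 ± 62.2 CPM (SD over 24 cells), or 26.4 ± 45.4 CPM without cell 3. Tgfbr3 and Tgfbr2 occurred together in cells 3 and 8, where the product of their detection shares gives 3.21 cells, and 16 cells had at least 1 of them.

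Tgfbr2 and Tgfbr3 were also set against Klf1. Klf1, the factor that drives globin and membrane genes, was under 10 CPM in cells 1, 9, 19, 23 and 24. The same 5 cells were those in which Cd34, a surface protein of early blood progenitors, was detected. They were not alike in the erythroid progenitor marker Gata1. It was at 2.48, 2.85, 0 and 0 CPM in cells 1, 9, 19 and 24, and at 886 CPM, its highest value, in cell 23. Tgfbr2 was detected in 4 of these 5 cells, at 64.4, 124, 78.7 and 82.0 CPM in cells 1, 19, 23 and 24, and in 3 of the other 19, cells 3, 8 and 14, which had Klf1 at 343, 244 and 445 CPM. Tgfbr3 was detected in 0 of the 5, with 1 count in cell 23, and in 11 of the other 19. Of 390 genes detected in 7 cells as Tgfbr2 was, 4.36% had at least 4 of the 5 cells among them. Of 353 genes detected in 11 cells as Tgfbr3 was, 7.65% had none of the 5. The limit of 10 CPM was set with these data known, and the split is a description of these 24 cells.

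Other measures moved with Tgfbr2. The 7 cells with Tgfbr2 had 876983 to 1613470 total counts (median 1231313), and the other 17 cells had 1149972 to 2155010 (median 1621094). Myeloid markers, of which 1 of 6 was detected in at least 12 cells and Elane had 0 counts in every cell, summed to 17.3 to 9356 CPM (median 275) in the 7 cells and to 0 to 1010 CPM (median 13.8) in the other 17. Endothelial markers summed to 0 to 457 CPM (median 60.9) in the 7 cells and to 0 to 116 CPM (median 0) in the other 17, all of it from Pecam1 and Tek. Lymphoid markers summed to 413 CPM in cell 19, the cell highest in Tgfbr2, to 0 CPM in the other 6 cells with it and to at most 0.576 CPM in the 17 without it. Mast cell and basophil markers summed to 0 to 887 CPM (median 0) in the 7 cells, highest in cells 24 and 23 at 887 and 593 CPM, and to 0 to 429 CPM (median 0) in the other 17. Erythroid progenitor markers summed to 1557 to 6959 CPM (median 3660) in the 7 cells and to 2485 to 8329 CPM (median 4386) in the other 17. Megakaryocyte markers summed to 0 to 560 CPM (median 175) and 3.11 to 1017 CPM (median 111) in the 7 and the other 17 cells, hepatocyte markers to 3.92 to 68.9 CPM (median 8.80) and 2.97 to 901 CPM (median 13.99). Stromal markers reached 106 CPM in the 7 and 33.4 CPM in the other 17 cells, and macrophage markers 0 and 115 CPM, all 4 with a median of 0. Their part in the distribution of Tgfbr2 was not tested.

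**Figure D3:**
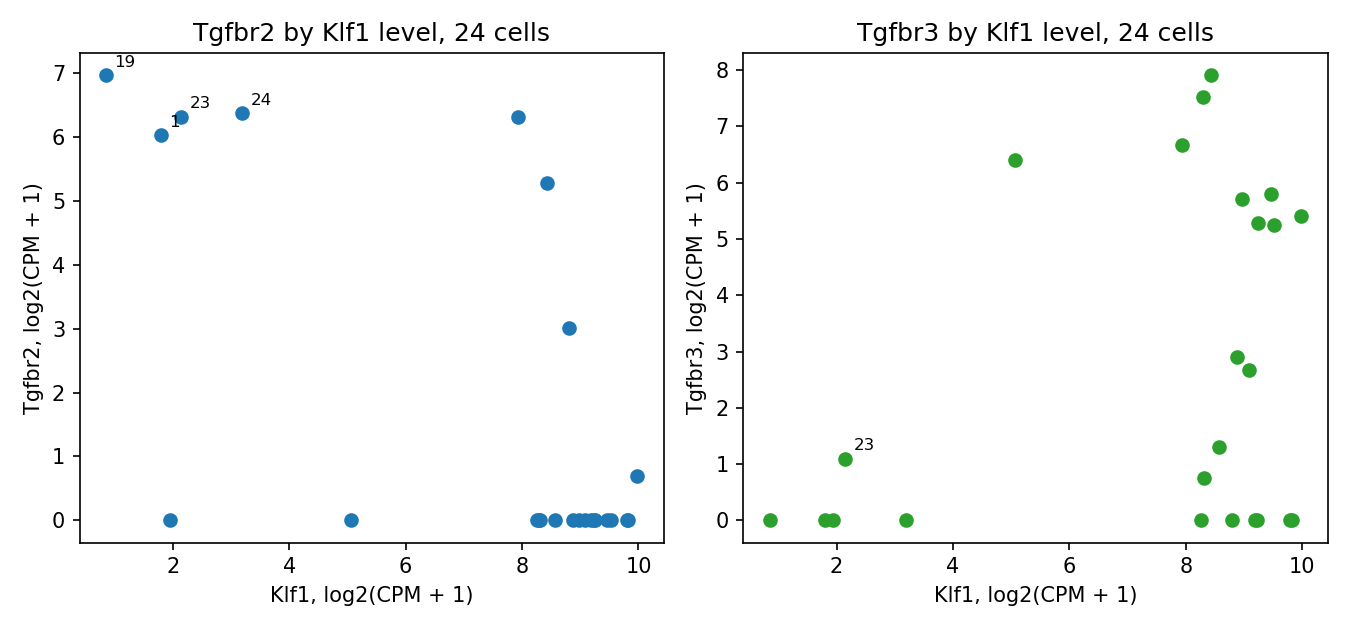
Tgfbr2 (left) and Tgfbr3 (right) against Klf1 in 24 cells, all as log2(CPM + 1), with cell numbers at points of low Klf1 that hold the receptor. Among the 5 cells with Klf1 under 10 CPM, 4 hold Tgfbr2 at 64.4 CPM or more, and the only Tgfbr3 is a value of 1 count in cell 23.

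Of the SMADs, Smad2 of the TGF-beta branch was detected in the most cells. Smad2 (ENSMUSG00000024563, chromosome 18, 76241580 to 76310963) was detected in 15 cells (62.5%, interval 40.6 to 81.2%), with a median of 17.5 CPM and a highest value of 193 CPM in cell 21. Cells 2 and 17 stood at 171 and 170 CPM, and 7 cells had 0 counts. Its mean was 46.0 ± 59.7 CPM. Smad3 (ENSMUSG00000032402, chromosome 9, 63646767 to 63757994) was detected in 9 cells (37.5%, interval 18.8 to 59.4%), with a median of 0 CPM and 205 CPM in cell 24, 157 CPM in cell 10 and 150 CPM in cell 2. Smad2 or Smad3 was found in 19 cells and both in 5, cells 2, 12, 13, 16 and 17. Smad2 was detected in 5 of 8 cells in each plate column.

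In the BMP branch Smad5 was found in more cells than Smad1. Smad5 (ENSMUSG00000021540, chromosome 13, 56703010 to 56742377) was detected in 11 cells (45.8%, interval 25.6 to 67.2%), with a median of 0.844 CPM and a highest value of 134 CPM in cell 3, followed by 81.7 CPM in cell 12. Its mean was 17.2 ± 32.4 CPM, or 12.1 ± 21.3 CPM without cell 3. Smad1 (ENSMUSG00000031681, chromosome 8, 79338395 to 79399518) was detected in cells 9, 6 and 19, at 52.0, 9.27 and 4.86 CPM, and had 0 counts in the other 21. Smad1 and Smad5 did not reach 5 counts together in any cell, where the product of their detection shares gives 1.38 cells. Cells 6 and 9, with Smad1, held 2 counts and 1 count of Smad5. In all, 14 cells had 1 of these genes at 5 counts. Smad5 was detected in 8 cells once every cell was thinned to 876983 counts.

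The coding ends of 3 receptor-regulated SMADs are shown because the serines there are what the type I receptors phosphorylate. Capitals mark the codons of the last 2 serines, and the stop codon is left out. The ends of Smad1 and Smad5 match at 23 of 33 bases, those of Smad3 and Smad1 at 18 and those of Smad3 and Smad5 at 19.
Smad3 (chr9:63650265-63650297, minus strand, exon 9 of 9): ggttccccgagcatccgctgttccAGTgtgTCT
Smad1 (chr8:79339652-79339684, minus strand, exon 7 of 7): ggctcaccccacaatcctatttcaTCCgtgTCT
Smad5 (chr13:56737443-56737475, plus strand, exon 7 of 7): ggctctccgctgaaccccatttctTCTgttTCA

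Smad4, which both branches need to act on genes as a full complex, was among the rarer transcripts. It (ENSMUSG00000024515, chromosome 18, 73639009 to 73703780) was detected in 5 cells (20.8%, interval 7.13 to 42.2%), with a median of 0 CPM. Its levels were 178 CPM in cell 23 and between 20.6 and 38.5 CPM in cells 9, 11, 14 and 20. The mean of 12.5 ± 37.1 CPM became 5.35 ± 12.1 CPM without cell 23. Of the 5 cells, 4 were in plate column 2, 1 in column 3 and 0 in column 1. It met Smad2 in cells 11 and 14 and Smad3 in cell 9.

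No cell held Tgfbr1, Tgfbr2 and Smad4, or Bmpr1a, Bmpr2 and Smad4, together at 5 counts. These sets, 1 for each branch, left out the receptor-regulated SMADs and the other receptors. Tgfbr1 and Tgfbr2 were detected together in cells 1 and 3, and neither cell had Smad4. The product of the detection shares gives 1.46 cells with both receptors and 0.304 cells with Smad4 as well. A count of 0 for the 3 genes together is thus close to what the shares alone give. Cell 14 had all 3 when a single count sufficed, with 3 counts of Tgfbr1, 9 of Tgfbr2 and 49 of Smad4. The BMP set was found in 0 cells, since Bmpr1a had no count. At least 1 receptor was found in 18 cells and at least 1 SMAD in 23, and a receptor met a receptor-regulated SMAD in 16 cells and Smad4 in cells 11, 14 and 23. At this depth a missing transcript says that it was not detectable, and transcripts say nothing of protein.

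Between genes, levels were compared per kilobase (kb) of annotated exon, since long transcripts draw more reads. Tgfbr3, Smad3 and Smad2 led with mean levels of 5.39 ± 9.50, 5.27 ± 10.5 and 5.24 ± 6.80 CPM per kb (SD over 24 cells). They were followed by Smad4 at 3.38 ± 10.01, Tgfbr2 at 2.41 ± 4.46 and Smad5 at 2.32 ± 4.37 CPM per kb. Tgfbr1 at 0.922 ± 2.44, Smad1 at 0.440 ± 1.71 and Bmpr2 at 0.304 ± 1.05 CPM per kb came last before Bmpr1a at 0. All 9 pairs of neighbours in this order differed by less than the SD of their difference over cells, so the order is not firm. Tgfbr3 ranked 6141st and Bmpr2 12835th of 16147 genes with a count and a length.

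Little shared variation between the members was seen from cell to cell. Only Smad2 reached 12 cells, so no pair could be formed at that mark, and the 5 genes detected in at least 6 cells, Tgfbr2, Tgfbr3, Smad2, Smad3 and Smad5, were used. Their 10 pairs had a mean Spearman rho of 0.013 and a median of 0.057 over 24 cells, against 0.0076 and 0.0075 for all pairs of the 8266 genes detected in at least 6 cells. The values of rho ran from −0.36 for Tgfbr2 with Smad2 to 0.20 for Tgfbr3 with Smad5, and 0 of 10 pairs reached an absolute value of 0.5, against 1.72% of all pairs. Within plate columns 1, 2 and 3 the mean was 0.076, 0.050 and 0.0054, from 8 cells each. The cells come from 1 set by their labels and differ in depth. Tgfbr2 had a rho of −0.58 with total counts, Smad2 0.41 and Tgfbr3 0.17, which are descriptions of sparse counts.

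Smad2 was set against all 5961 other genes detected in at least 12 cells, of which 2.45% had an absolute rho of 0.5 or more. The nearest pattern was that of Hmmr, which encodes a hyaluronan receptor that also binds the mitotic spindle, with a rho of 0.77 and a mean of 45.9 ± 60.5 CPM. Hmmr and Smad2 were both detected in 13 cells, Smad2 alone in 2, Hmmr alone in 1 and neither in 8. Within plate columns 1, 2 and 3 that rho was 0.91, 0.56 and 0.71. Next came Sssca1 with a rho of 0.69, at 124 ± 74.0 CPM, and Tuba1b, an alpha-tubulin gene, with a rho of 0.68, at 994 ± 251 CPM. Total counts had a rho of 0.43, 0.45 and 0.39 with these 3 genes and 0.41 with Smad2, and with every cell thinned to 876983 counts the rho of Smad2 and Hmmr was 0.75.

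The 14 erythroid progenitor markers were set against Smad2 and, as the most common receptor, Tgfbr3, and 1 of the 14 reached an absolute rho of 0.5 for each. For Smad2 it was Cd34 with a rho of −0.55, or −0.069, −0.84 and −0.71 within plate columns 1, 2 and 3, and −0.48, under that mark, without the 5 cells with Klf1 under 10 CPM. Those 5 are the cells in which Cd34 was detected. In the others it had at most 3 counts, so the −0.48 rests on counts under the detection limit. For Tgfbr3 it was Mki67, a marker of dividing cells, with a rho of 0.61 and with 0.85, 0.61 and 0.53 within the columns. It lay between 0.57 and 0.69 whichever cell was left out. Of all 5962 genes detected in at least 12 cells, 1.51% had an absolute rho of 0.5 or more with Tgfbr3. Mki67 was detected in all 11 cells with Tgfbr3 and in 10 of the other 13. Its level was 11.5 to 359 CPM (median 105) in the 11 cells and 0.712 to 341 CPM (median 38.8) in the other 13, so that the ranges overlapped. Car1 followed with a rho of 0.48, and Kit, Klf1 and Gata1 had −0.21, 0.13 and 0.19 with Tgfbr3.

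**Figure D4:**
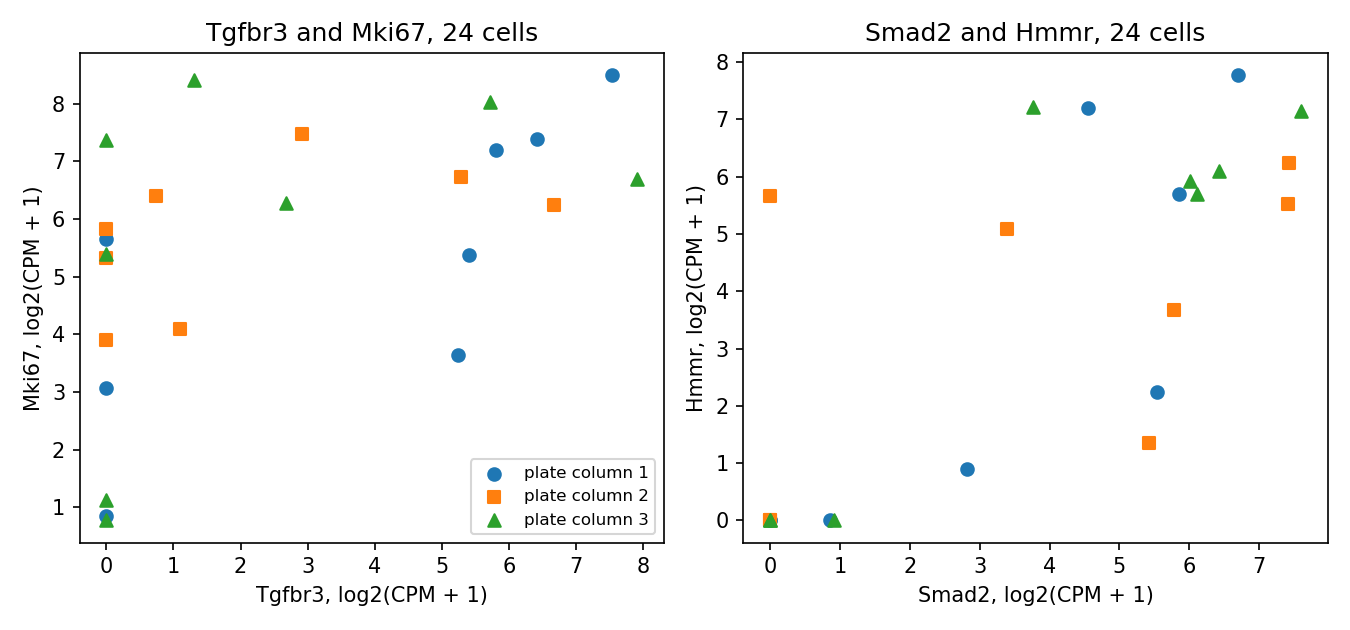
Mki67 against Tgfbr3 (left) and Hmmr against Smad2 (right) in 24 cells as log2(CPM + 1), with a symbol for each plate column. The points tend upward to the right, with rho 0.61 and 0.77, and with exceptions such as cell 4 (Tgfbr3 36.8 and Mki67 11.5 CPM) and cell 5 (Smad2 41.9 and Hmmr 1.55 CPM).

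Around the 10 genes, 64 other pathway genes were counted by role. Of these 26 had 0 counts in every cell, and of the 38 with a count 13 were detected in at least 12 cells, which is 34.2% and close to the 36.8% of all genes with a count. Tgfb1 was the leading ligand of 11, in 11 cells with a median of 1.14 and a highest value of 63.9 CPM. Tgfb2 was detected in 1 cell and Gdf11 had 2 counts in 1 cell, while 8 ligand genes, Bmp2, Bmp4, Bmp6 and Bmp7 among them, had 0 counts. Of 5 genes that hold or present latent TGF-beta, Nrros was detected in 21 cells at 179 ± 203 CPM and Ltbp1 in 13 at 21.3 ± 41.4 CPM, and the mean of Ltbp1 was 14.2 CPM without cell 12. Ltbp3, Ltbp4 and Lrrc32 had 0 counts.

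Most other receptors were detected in few cells or none. Of 5 other type I receptors, Acvr1 and Acvr1b were each detected in cell 16 only, at 41.3 and 31.0 CPM, and Acvr1c, Acvrl1 and Bmpr1b had 0 counts. Of 3 other type II receptors, the activin receptors Acvr2a and Acvr2b were in 3 cells and 1 cell, and Amhr2 in 0. Among 4 co-receptors and decoys, Eng, the endoglin co-receptor, was in 14 cells at 56.2 ± 68.9 CPM, and Bambi, a receptor without a kinase, in 2. Rgma and Rgmb had 0 counts. Of the 3 other SMADs, the inhibitory Smad6 was in 2 cells at up to 8.78 CPM, and Smad7 and the BMP-branch Smad9 had 0 counts in every cell.

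Among genes for proteins that bind or modify receptors and SMADs, 3 were found in every cell. Strap, which binds TGF-beta receptors, Fkbp1a, which binds the GS domain of type I receptors, and the deubiquitinase Usp15 were each detected in all 24 cells, at 394 ± 132, 309 ± 213 and 190 ± 111 CPM. Over all genes with a count, 7.61% were detected in all 24 cells and 36.8% in at least 12. Of the 10 genes in that group 5 were detected in at least 12 cells, with Usp9x in 18 and Trim33, a ubiquitin ligase and SMAD partner needed for erythroid development in zebrafish, in 12 at 16.9 ± 31.8 CPM. The ligases Smurf1 and Smurf2 were in 2 cells and 1 cell. Among 7 nuclear partners the acetyltransferase Crebbp was in 19 cells at 35.4 ± 42.0 CPM, and the repressors Tgif1 and Ski were in 7 cells each, at 15.7 ± 31.7 and 15.4 ± 36.0 CPM. In the branch that works without SMADs, 3 of 5 genes passed 12 cells, Tab1 in 17 at 56.7 ± 55.4 CPM, Xiap in 16 at 42.0 ± 49.9 and Tab2 in 14 at 26.1 ± 37.4, while the kinase Map3k7 was in 9.

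Genes reported elsewhere as targets of these signals were mostly found in few cells or none. Of 11, only the cell cycle inhibitor Cdkn1b was in 12 cells, at a median of 2.76 CPM and a highest value of 110 CPM in cell 12. Cdkn1a, another such inhibitor, reached 376 CPM in cell 24 and was found in 5 cells, and its mean of 21.7 CPM became 6.28 CPM without that cell. Id1, a BMP target, reached 308 CPM in cell 3 and was also found in 5 cells, and its mean of 19.6 CPM became 7.04 CPM without that cell. The group's other 8 genes were detected in at most 3 cells, and Id3, Cdkn2b, Tgfbi, Ccn2 and Pmepa1 had 0 counts in every cell.

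**Figure D5:**
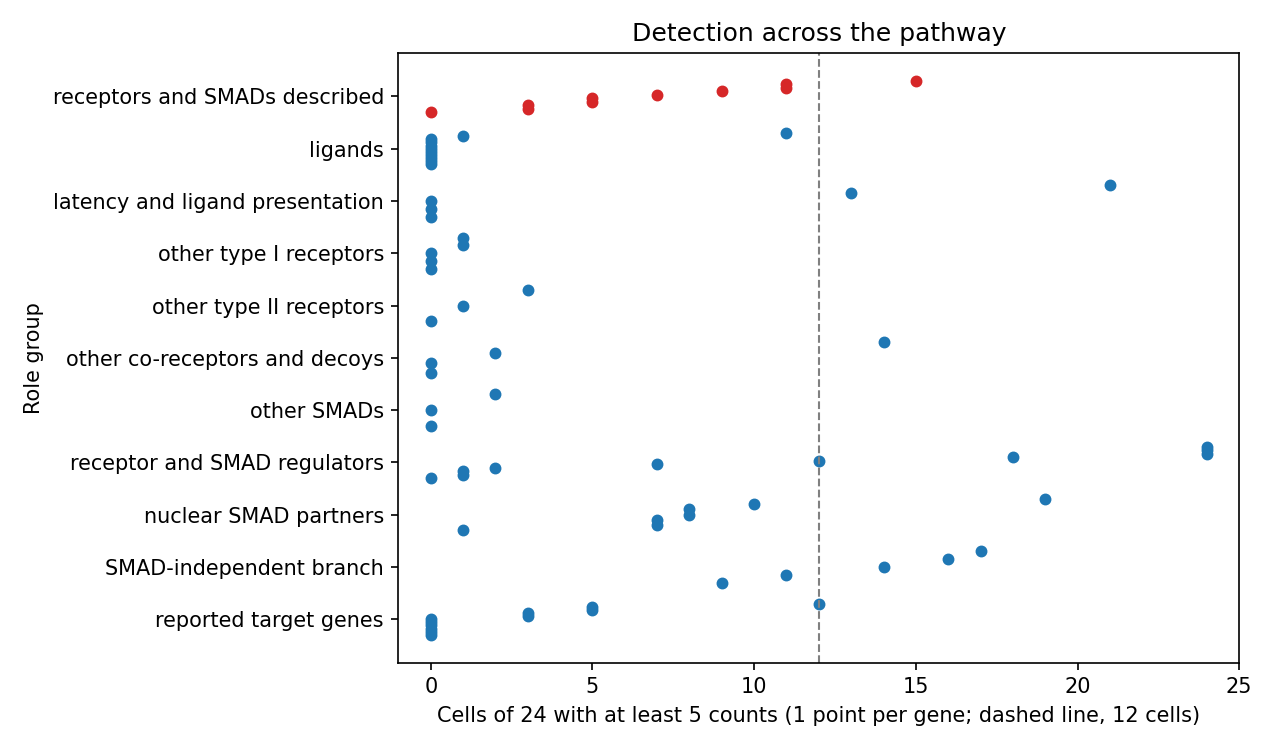
Number of cells, of 24, in which each gene reached 5 counts, 1 point per gene, with the 10 receptors and SMADs described here in the top row and the role groups of the 64 other pathway genes under it. The dashed line marks 12 cells: 1 of 10 and 13 of 64 genes lie at or beyond it, and ligands and target genes crowd at 0.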

How the data were processed

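Single cells were profiled by Smart-seq2 without molecular identifiers and without strand, per the labels' protocols. The authors deposited unnormalised counts of reads in genes for 24 cells; the submitters' processing notes name STAR 2.4, featureCounts and GRCm38. For the annotation release, counting options and any cell filter, the sources used here give nothing. Identifiers were matched to GENCODE M21, also on GRCm38: 49326 of 49585 had a symbol.

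Counts were scaled to CPM by all gene rows of a cell. Detection meant 5 counts. Lengths are the union of annotated exons. Correlations are Spearman's rho on CPM. Analyses ran in Python 3.11.15 with pandas 2.3.3 and scipy 1.17.1. The correlation and thinning steps were tried on simulated data. No result of those trials is given here, and they are not a test of rankings for sparse genes such as the members. The smallest and largest totals were 876983 and 2155010 counts. Intervals and floors cover counting error only, since PCR copies are not independent molecules, and say nothing of other embryos.

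Transcripts of 10 genes were searched against GENCODE M21 with BLAST 2.17.0 for other genes alike at 90% identity over 200 bases, which gave Gm43422 for Tgfbr3 and Gm17110 for Bmpr1a, both with 0 counts. Of 10 members 5 overlap another annotated gene, with at most 2 counts in a gene that has a row.

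The members and lists were chosen with earlier results of these data known, so nothing here is independent support for a pattern. Named were the 10 members, the 3 highest genes of each pathway group and those in 24 cells, the 3 genes most like a member in at least 12 cells, and its closest marker. Other genes were named after their values were seen. The mark of 6 cells replaced that of 12 for pairs because 12 left 1 gene.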

Additional observations from a re-analysis of the deposited data

How the results depend on the processing

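With all cells kept, the count of members detected in at least 12 cells was 1, and it was 3 when a single count sufficed, when Tgfbr3 reached 14 cells and Smad5 13. It was 2 of 10 in at least 10 of the 19 cells left when the 5 cells with Klf1 under 10 CPM were left out, Tgfbr3 being the other. At 10 counts, after thinning and with any cell left out it stayed at 1. The 13 pathway genes became 10 to 16 over these settings and 11 to 13 with a cell left out. The set of Tgfbr1, Tgfbr2 and Smad4 was found in 1 cell with a single count as the limit and in 0 cells otherwise. A limit of 10 counts, thinning or leaving cells out cannot raise a count of 0, so these settings do not test it. The BMP set was found in 0 cells throughout, which no setting could change because Bmpr1a had no count. Cells with both Tgfbr1 and Tgfbr2 numbered 2, against 1 without the 5 cells low in Klf1 and 1 to 2 with a cell left out (1 without cell 1 or cell 3). The mean rho of member pairs lay between −0.018 and 0.078 over the other settings and between −0.028 and 0.030 with a cell left out. Of 28 pairs of Smad2 or Tgfbr3 with a marker, 7, 8 and 13 reached an absolute rho of 0.5 within plate columns 1, 2 and 3. These come from 8 cells each, against 2 pairs over all cells. The share over all genes was not computed at 8 cells, so nothing is read from these counts. Signs could also differ, as for Gata1 with Smad2, at −0.66 in column 2 and 0.71 in column 3. Scaling by size factors or without mitochondrial and ribosomal RNA moved every member's mean by less than its SD. That SD exceeds the mean for each detected member, so this could hardly have come out otherwise. The mean of the summed level of the 10 genes was 174 CPM, and 176 and 192 CPM with these scalings. By counting error alone, a 0 could hide up to 3.42 CPM in the shallowest cell. Other losses of a transcript are not covered by this floor, and their part in the values of 0 was not tested. No paired analysis was possible because there is 1 group.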

Other observations

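Tgfbr3, in 11 cells, fell 1 cell short of the mark for naming the genes most like it, so the following were chosen after their values were seen. Over 24 cells its pattern was nearest to Prcp, a serine carboxypeptidase, with a rho of 0.68, to the ribosomal protein gene Rpl5 with 0.68 and to Lmo2, a bridging factor of erythroid transcription complexes, with 0.68. Lmo2 gave 0.71, 0.66 and 0.75 within plate columns 1, 2 and 3, 0.59 without the 5 cells with Klf1 under 10 CPM and 0.64 to 0.76 with any cell left out. The 11 cells with Tgfbr3 held Lmo2 at 29.9 to 1037 CPM (median 505), and the other 13 cells at 1.62 to 641 CPM (median 256), so the ranges overlapped. Rpl5 (chromosome 5, 107900502 to 107909005) lies 611 kb from Tgfbr3 on the same chromosome. At the other end stood Ly6e, a surface protein gene, with a rho of −0.64 (−0.88, −0.63 and −0.42 within the columns).

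The genes that ran most against Smad2 were Zfp991, Ddx52 and Sfpq, with rho −0.65, −0.63 and −0.62. Smad2 was detected in 1 of the 5 cells with Klf1 under 10 CPM and in 14 of the other 19, and of 363 genes detected in 15 cells 14.3% had at most 1 of the 5 cells among them.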
